A study of Mus musculus with 8 samples.

Results

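MHC class II presentation genes were taken as Cd74, Ciita and every gene row whose symbol starts with H2-A, H2-E, H2-DM or H2-O. The deposited table held 9 such genes among its 754: H2-Aa, H2-Ab1, H2-Ea-ps, H2-Eb1, Cd74, H2-DMa, H2-DMb1, H2-DMb2 and H2-Ob. Ciita had no row and is not analysed here. The genes were measured with NanoString nCounter, which counts colour-coded probes on RNA without amplification. The RNA came from lung cells that carried CD11b or CD11c, isolated with beads and called dendritic cells in the labels. All mice were Balb/c and had been grafted with 4T1, a mammary carcinoma line of that strain that spreads to the lung. DSHN samples came from mice given DSHN, which activates the orphan nuclear receptor NR0B2, and DMSO samples from mice given DMSO as placebo, each listed at 10 mg/kg and given daily for 7 days from 10 days after grafting. The 24 mice gave 4 DSHN and 4 DMSO samples, each pooled from the lungs of 3 mice. The age and sex of the mice are not given in the labels.

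MHC class II molecules show peptides from engulfed material to CD4 T cells. An alpha and a beta chain pair in the endoplasmic reticulum with the invariant chain Cd74, which fills the groove and guides the complex to endosomes. There proteases trim Cd74, H2-DM removes the remaining fragment and loads peptide, and H2-O restrains H2-DM. Dendritic cells, B cells and activated macrophages carry class II, and the transactivator CIITA drives its genes together through shared promoter elements named the X and Y boxes.

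Reference promoters were available for 6 of the 9 genes and are shown because these shared elements are what the genes have in common in sequence. The windows are from RefSeq on GRCm38.p6, the C57BL/6J genome, so Balb/c alleles can differ. Each holds the 130 bases before an annotated start, 5′ to 3′ on the strand of the gene. Capitals mark matches on either strand to ATTGG, the core of the Y box, and to GCAAC or AACNGATG, parts of the X box. H2-Aa lies on the minus strand at chr17:34287824-34287953. H2-Eb1 lies on the plus strand at chr17:34305737-34305866, H2-DMb2 at chr17:34145119-34145248, H2-DMb1 at chr17:34153061-34153190 and H2-Ob at chr17:34238775-34238904.
H2-Aa: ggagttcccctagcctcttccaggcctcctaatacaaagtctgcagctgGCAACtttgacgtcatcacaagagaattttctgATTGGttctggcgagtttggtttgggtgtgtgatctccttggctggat
H2-Eb1: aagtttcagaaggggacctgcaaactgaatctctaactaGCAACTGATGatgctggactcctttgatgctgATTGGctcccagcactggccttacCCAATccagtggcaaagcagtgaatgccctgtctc
H2-DMb2: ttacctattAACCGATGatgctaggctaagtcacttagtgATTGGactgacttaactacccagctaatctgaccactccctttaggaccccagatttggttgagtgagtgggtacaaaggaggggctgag
H2-DMb1: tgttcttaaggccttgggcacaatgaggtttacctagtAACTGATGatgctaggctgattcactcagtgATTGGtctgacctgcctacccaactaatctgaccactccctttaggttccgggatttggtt
H2-Ob: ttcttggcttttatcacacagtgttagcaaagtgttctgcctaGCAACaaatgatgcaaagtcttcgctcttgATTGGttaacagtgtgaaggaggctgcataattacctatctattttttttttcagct

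In the H2-Aa, H2-Eb1 and H2-Ob windows GCAAC was followed on the same strand by ATTGG, with 28, 27 and 25 bases between them. Over all 32851 windows of 250 bases before a RefSeq start, 0.874% held GCAAC followed by ATTGG with 15 to 35 bases between. ATTGG alone was in 33.9% of those windows, GCAAC in 29.9% and AACNGATG in 1.99%, each on either strand. AACNGATG was in the windows of H2-Eb1, where it overlaps GCAAC, of H2-DMb2 and of H2-DMb1. The longer Y box CTGATTGG, which contains ATTGG, was in those of H2-Aa and H2-Eb1 and in 3.83% of all windows. The core of the interferon element ISRE, GAAA repeated after any 2 bases, was in none of the member windows and in 2.98% of all. The other interferon motif searched, GAS (TTCNNNGAA), was in the H2-DMb2 window, 218 bases before the start, and in 7.02% of all windows. The H2-DMa windows, at the 2 annotated starts in the table, held no ATTGG within the 130 bases before the start. In the 250 bases used for the shares, 1 of them held GCAAC on the other strand. The other held ATTGG, 198 bases before the start. A match is a description of letters in this window, and GCAAC was added to the search after the sequences were seen.

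The deposited log2 values carried a spike-in factor per sample but no scaling to the amount of RNA, and on that scale DSHN had the lower mean for 99.8% of the 554 genes. Averaged over 4 housekeeping genes (Tubb5, Rpl19, Ppia and Oaz1), the deposited level was 10.01 ± 1.44 in DSHN samples and 11.91 ± 1.03 in DMSO samples (SD, n = 4 each). Gene values below are therefore log2 values relative to those 4 genes, and a difference is the DSHN mean minus the DMSO mean. Each deposited difference lies lower by the same housekeeping shift, which puts the tested members between -2.18 and -1.84 there, beside a median of -1.87 over the 554 genes. Counts recovered by removing the factor totalled 123700 for DSHN 1, where every other pool had 533000 to 923600. DSHN 1 had 293 genes above the negative-control background, against 498 to 559 elsewhere, and DMSO 1 carried a spike-in factor of 6.83, against 0.605 to 1.16 elsewhere. Differences of the members and of the other genes named are given without both of these samples too. The samples are pools of separate animals, and each counted as 1 replicate.

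No class II presentation gene differed between DSHN and DMSO beyond the spread between pools. The groups of each of the 8 members tested overlapped, where 3.25% of the 554 genes had groups that did not (0.722% with every DSHN pool below every DMSO pool, 2.53% above). Of the 8, 0 passed in limma with Benjamini-Hochberg adjustment over all 554 genes (adjusted p 0.925 or higher), and 0 had an unadjusted p under 0.05. Over all genes 0% passed (0 of 554) and 3.61% had an unadjusted p under 0.05 (20 of 554). H2-DMb1 was too low to be tested. The mean was lower in DSHN for 7 of the 8 tested members and higher for H2-DMb2, where 46.6% of all tested genes had a lower mean. The median difference over the members was -0.14, against 0.03 over all tested genes. That split is open to the scaling and to single pools: with Tubb5 left out of the scaling 5 of the 8 were higher (median 0.036, against 0.20 over all genes, 400 of which were then higher and 154 lower, against 296 and 258 with Tubb5), and so were 5 of 8 after quantile normalization. Without DMSO 1 and DSHN 1, 3 of the 8 had a lower mean (median 0.016), where 40.4% of all genes did. Scaled to the 4 housekeeping genes, itself included, Tubb5 was 8.68 in DMSO 1 and 9.84 to 10.39 in the other 7 samples.

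**Figure D1:**
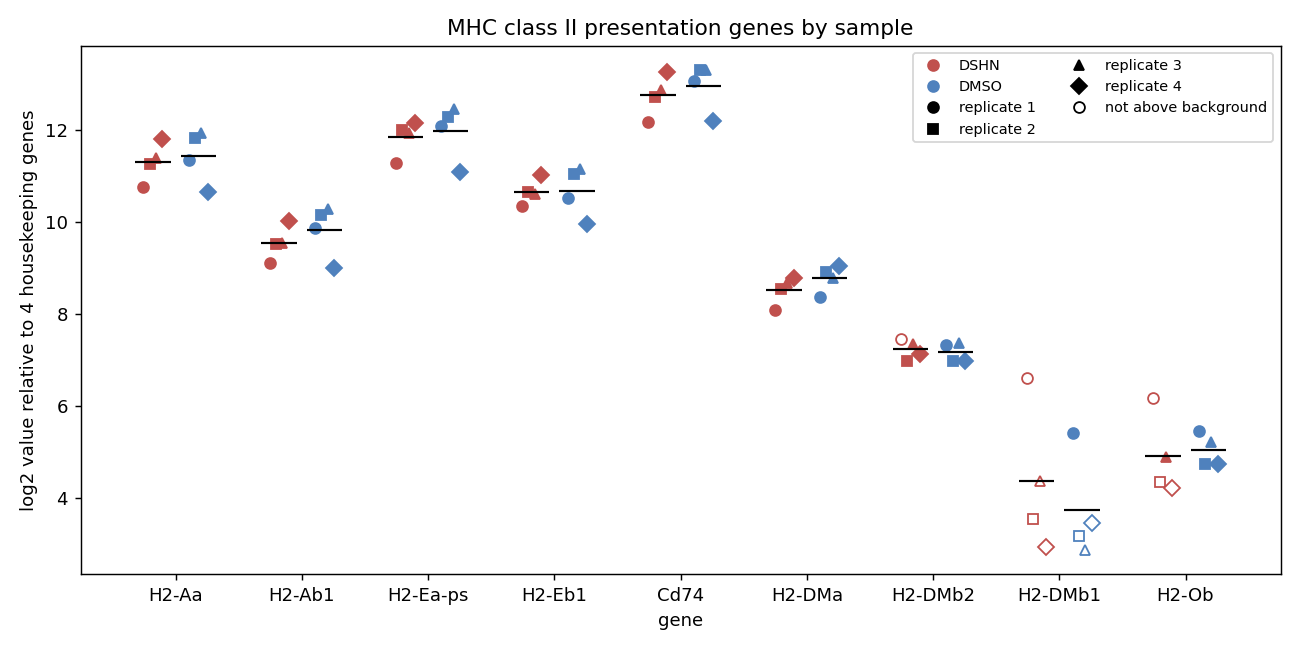
Log2 value relative to the 4 housekeeping genes (vertical axis) of the 9 class II presentation genes (horizontal axis), with DSHN in red left of DMSO in blue, a symbol for each replicate number, black lines for group means and open symbols where the count was not above background. The groups overlap for every gene drawn, DMSO 4 and DSHN 1 are low for the 4 chains and Cd74, and H2-DMb1 is above background in 1 sample, DMSO 1.

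The classical chains were above background in every pool. H2-Aa and H2-Ab1 encode the alpha and beta chains of I-A. H2-Aa, the alpha chain, was 10.77, 11.26, 11.38 and 11.81 in DSHN 1 to 4, against 11.35, 11.82, 11.93 and 10.66 in DMSO 1 to 4 (log2 relative to housekeeping genes). The lowest value of all was DMSO 4, so the groups overlapped across nearly their whole range. The difference was -0.13 (95% interval -0.87 to 0.60, limma, adjusted p = 0.962). It turned in sign without DSHN 1 (0.045), without DMSO 3 (0.030) and without both DMSO 1 and DSHN 1 (0.016).

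H2-Ab1, the beta chain of I-A, was 9.12, 9.51, 9.53 and 10.02 in DSHN 1 to 4, against 9.87, 10.15, 10.28 and 9.01 in DMSO 1 to 4. In this gene 3 of the 4 DMSO pools lay above DSHN 1 to 3, and DMSO 4 lay below every DSHN pool. The difference was -0.28 ± 0.31 (log2, SE; 95% interval -0.98 to 0.42; limma, adjusted p = 0.925), the largest among the 8 tested members in size. It was -0.55 without DMSO 4 (adjusted p = 0.705) and -0.12 without DMSO 1 and DSHN 1. The sign stayed negative in each fit that left out a single sample.

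H2-Ea-ps and H2-Eb1 encode the alpha and beta chains of I-E. The alpha gene is annotated as a transcribed pseudogene in the C57BL/6J reference, where it is listed as H2-Ea, while Balb/c mice have an intact copy and make I-E. H2-Ea-ps was 11.28, 12.00, 11.92 and 12.15 in DSHN 1 to 4, against 12.09, 12.27, 12.46 and 11.08 in DMSO 1 to 4. Its recovered counts were 479.8 to 4576 in DSHN and 2337 to 7589 in DMSO, far above the limits of 17.9 to 40.1 counts set by the negative controls in these samples. The difference was -0.14 (95% interval -0.87 to 0.60; limma, adjusted p = 0.961), and it was 0.089 without DMSO 1 and DSHN 1.

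H2-Eb1, the beta chain of I-E, was 10.35, 10.64, 10.60 and 11.03 in DSHN 1 to 4, against 10.52, 11.04, 11.14 and 9.96 in DMSO 1 to 4. The DSHN values lay inside the DMSO range, which was wider at both ends. Its difference was the smallest of the 8 in size, at -0.0088 (95% interval -0.66 to 0.64; limma, adjusted p = 0.996), or 0.046 without DMSO 1 and DSHN 1. The intervals show which differences the values allow, and the size that 4 pools a group could detect was not calculated.

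Cd74, the invariant chain, was 12.17, 12.72, 12.85 and 13.25 in DSHN 1 to 4, against 13.07, 13.29, 13.30 and 12.19 in DMSO 1 to 4. The low pools were again DSHN 1 and DMSO 4, which lay close to each other. The difference was -0.21 (95% interval -0.93 to 0.50; limma, adjusted p = 0.925). It was 0.016 without DMSO 1 and DSHN 1, and leaving out single samples gave -0.47 (without DMSO 4) to -0.020 (without DSHN 1). Together the 9 genes made up 2.71 ± 0.654% of all gene counts in DSHN and 2.92 ± 1.13% in DMSO (SD, n = 4 each), with 1.77% to 3.20% in DSHN pools and 1.92% to 4.05% in DMSO pools. In pooled cells, fewer class II cells and less class II RNA per cell cannot be told apart.

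**Figure D2:**
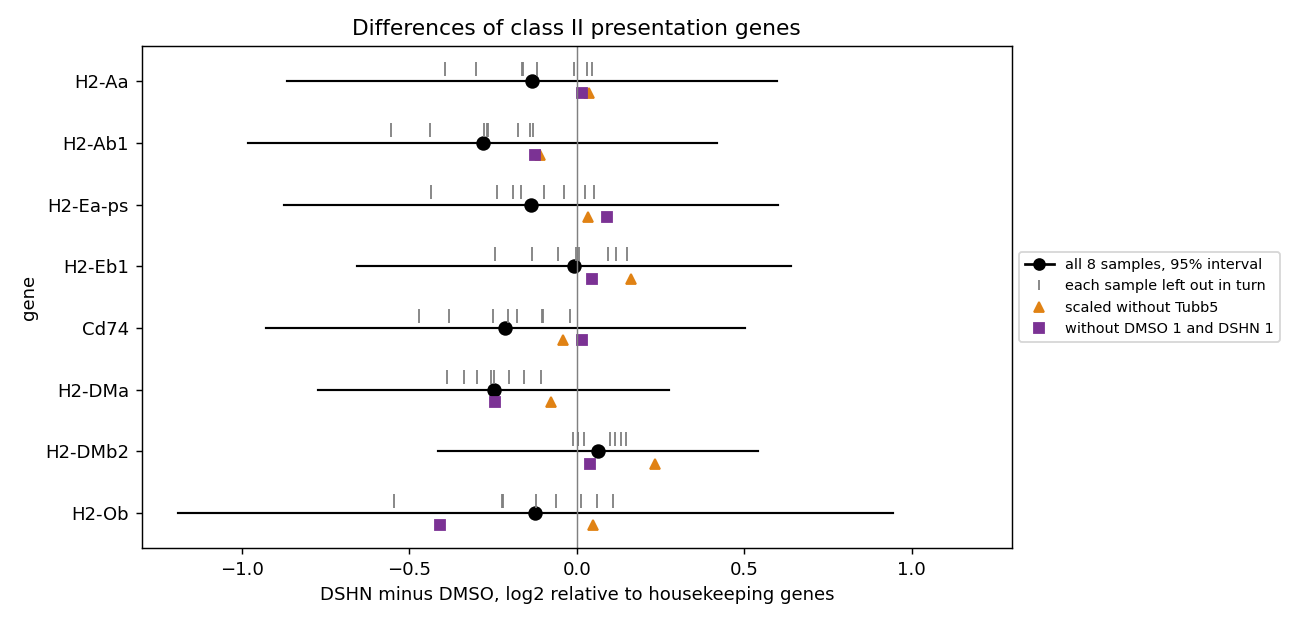
DSHN minus DMSO difference on the log2 scale relative to housekeeping genes (horizontal axis) for the 8 members tested (vertical axis), with black points and lines for all 8 samples and their 95% intervals, grey ticks for fits that leave out 1 sample, orange triangles for scaling without Tubb5 and purple squares for the fit without DMSO 1 and DSHN 1. Every interval spans 0, from H2-Ab1 at -0.28 to H2-DMb2 at 0.064.

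The 4 classical chains and Cd74 moved with each other from pool to pool. DSHN 1 and DMSO 4 were the lowest samples for H2-Aa, H2-Ab1, H2-Ea-ps, H2-Eb1 and Cd74, and DMSO 3 was the highest for each of them. The log2 difference between 2 genes within a sample needs no scaling, so it was used to measure how closely each gene followed H2-Ab1. Its SD over the 8 samples was 0.097 for Cd74, 0.11 for H2-Aa, 0.15 for H2-Ea-ps and 0.18 for H2-Eb1, while the scaled values of these genes had SDs of 0.40 to 0.48. Among the 290 other genes above background in all 8 samples, these 4 had the 4 lowest SDs against H2-Ab1, followed by Hdc at 0.30, and the median was 0.60. H2-DMa stood at place 54 with an SD of 0.49, and its difference to H2-Ab1 was 0.04 in DMSO 4 against -1.51 to -0.86 in the other pools.

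**Figure D3:**
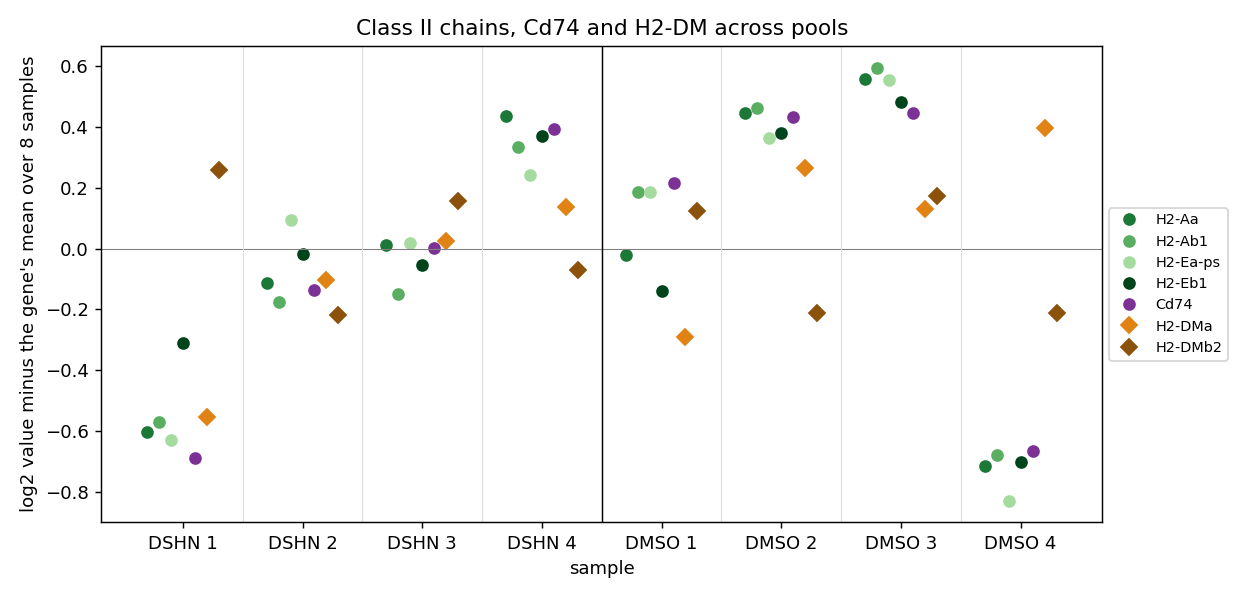
Log2 value minus the gene's own mean over the 8 samples (vertical axis) in each pool (horizontal axis, DSHN left of the line and DMSO right), for the 4 classical chains and Cd74 as circles and for H2-DMa and H2-DMb2 as diamonds. The circles lie together below 0 in DSHN 1 and DMSO 4 and above 0 in DSHN 4, DMSO 2 and DMSO 3, while in DMSO 4 H2-DMa is the highest of its 8 values.

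Within the chains, H2-Eb1 relative to H2-Ab1 was the measure whose groups separated. H2-Eb1 minus H2-Ab1 was 1.23, 1.13, 1.07 and 1.01 in DSHN 1 to 4, against 0.65, 0.89, 0.86 and 0.95 in DMSO 1 to 4. Every DSHN pool lay above every DMSO pool. The group means were 1.11 ± 0.094 in DSHN and 0.84 ± 0.13 in DMSO (SD, n = 4 each). They differed by 0.27, with a two-sided exact permutation p = 0.0286, as low as the 70 possible assignments can give. Over the 4 within-sample differences tested, the Benjamini-Hochberg value of this exact permutation p was 0.114, so it did not pass. A ratio shows unequal change and not which of the genes changed.

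The gap between the groups was narrow against counting error. For DSHN 1, where H2-Ab1 had 107.3 recovered counts, the 95% counting interval of this difference was 0.90 to 1.56, and in DSHN 4, at 1.01, it was 0.90 to 1.12, against 0.80 to 1.10 in DMSO 4. Such intervals cover counting error only. Without DMSO 1 and DSHN 1 the difference was 0.17, smaller by over 1.5 times (exact permutation p = 0.1, Benjamini-Hochberg 0.133). Leaving out samples cannot make separated groups overlap, so their separation there is no further support. Leaving out each sample in turn gave 0.21 to 0.31. Of the 290 genes set against H2-Ab1 in this way, 0.69% had groups that did not overlap (2 of 290), and the other was the chemokine Ccl22, with 1.09.

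The other tested differences overlapped. H2-Aa minus H2-Ab1, the partners of I-A, was 1.65, 1.75, 1.85 and 1.79 in DSHN 1 to 4, against 1.48, 1.67, 1.65 and 1.65 in DMSO 1 to 4. The means were 1.76 ± 0.084 in DSHN and 1.61 ± 0.089 in DMSO (SD, n = 4 each; exact permutation p = 0.114, Benjamini-Hochberg 0.229). Cd74 minus H2-Ab1 differed by 0.068 (exact permutation p = 0.343, Benjamini-Hochberg 0.457). H2-Ea-ps minus H2-Ab1, which was not among the tested differences, was 2.16, 2.49, 2.39 and 2.13 in DSHN 1 to 4, against 2.22, 2.12, 2.18 and 2.07 in DMSO 1 to 4. With the negative-control mean subtracted from the counts, H2-Eb1, H2-Aa and Cd74 relative to H2-Ab1 differed by 0.31, 0.19 and 0.12, each with an exact permutation p = 0.0286 (Benjamini-Hochberg 0.0381), so for all 3 the outcome depended on the treatment of background. These 3 differences share H2-Ab1 and are not separate results.

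**Figure D4:**
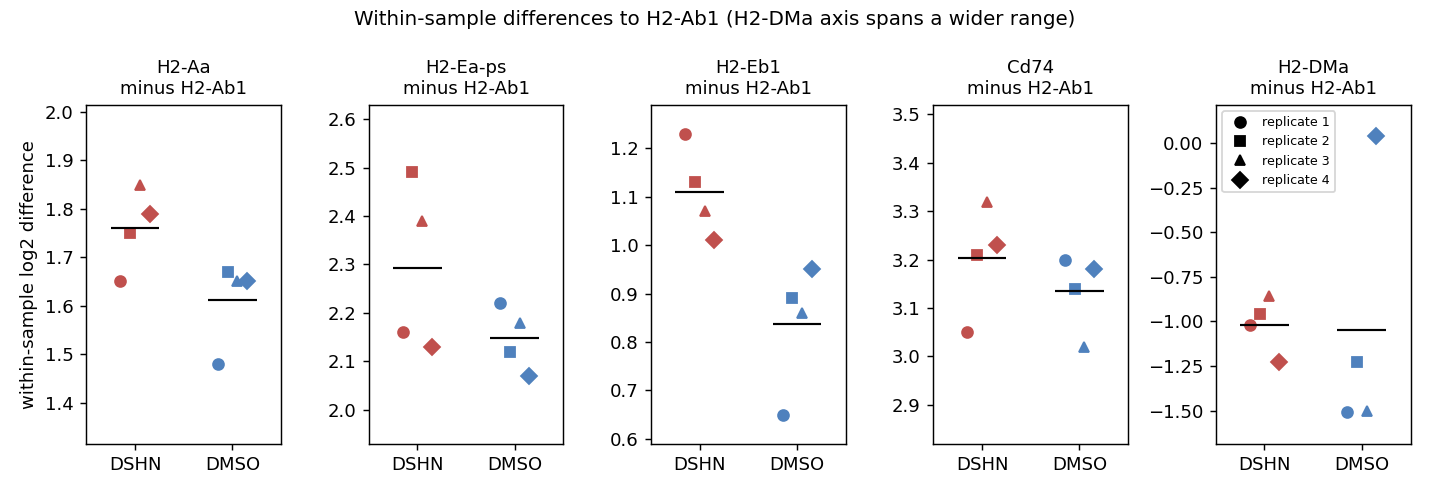
Log2 difference within a sample (vertical axes, of equal span except the wider one for H2-DMa) between H2-Aa, H2-Ea-ps, H2-Eb1, Cd74 or H2-DMa and H2-Ab1, with DSHN in red left of DMSO in blue, a symbol for each replicate number and black lines for group means. The groups do not overlap for H2-Eb1 and overlap in the other 4 panels, and H2-DMa in DMSO 4 stands at 0.04, above its other values.

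In H2-DM, the peptide editor, the alpha chain gene H2-DMa departed from the classical chains mainly in 1 pool, DMSO 4. H2-DMa was 8.10, 8.55, 8.67 and 8.79 in DSHN 1 to 4, against 8.36, 8.92, 8.78 and 9.05 in DMSO 1 to 4. Its highest value was in DMSO 4, the pool in which the classical chains and Cd74 were lowest or next to lowest. The difference was -0.25 ± 0.23 (log2, SE; limma, adjusted p = 0.925), and -0.24 without DMSO 1 and DSHN 1. Leaving out single samples gave -0.39 (without DMSO 1) to -0.11 (without DSHN 1). Relative to H2-Ab1 it was -1.23 to -0.86 in DSHN pools and -1.51 to 0.04 in DMSO pools, a difference of 0.032 (exact permutation p = 1).

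The beta chain of H2-DM has neighbouring, closely related genes in mice, H2-DMb1 and H2-DMb2, and how far their probes tell them apart was not tested. H2-DMb2 was 7.46, 6.98, 7.35 and 7.13 in DSHN 1 to 4, against 7.32, 6.99, 7.37 and 6.99 in DMSO 1 to 4, with DSHN 1 under background at 34.0 counts. This was the narrowest spread of the members (SD 0.20 over the 8 samples), and the difference was 0.064 (95% interval -0.41 to 0.54; limma, adjusted p = 0.974), or 0.039 without DMSO 1 and DSHN 1. It was -0.012 without DSHN 1, whose low count the scaling lifts to the highest value, and -0.16 with background subtracted. H2-DMb1 was above background in 0 of 4 DSHN pools and 1 of 4 DMSO pools, with 7.02 to 19.0 counts in DSHN and 9.02 to 33.1 counts in DMSO, so no difference is given. The promoter windows of both genes are shown above, and both hold AACNGATG and ATTGG.

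H2-Ob, the beta chain of the H2-DM inhibitor H2-O, was near background throughout. It had 14.0, 22.9, 26.0 and 17.0 recovered counts in DSHN 1 to 4, against 34.0, 41.1, 46.0 and 29.0 in DMSO 1 to 4. These counts carry the loading of each sample and cannot be compared between groups. Total counts were 123700 to 617700 in DSHN pools, lowest in DSHN 1, and 598100 to 923600 in DMSO pools. H2-Ob was above background in 1 of 4 DSHN pools and 4 of 4 DMSO pools. Relative to the housekeeping genes the values were 6.18, 4.36, 4.90 and 4.22 in DSHN 1 to 4, against 5.45, 4.74, 5.22 and 4.75 in DMSO 1 to 4, where the scaling lifts the background count of DSHN 1 to the highest value. The difference was -0.12 (95% interval -1.19 to 0.94; limma, adjusted p = 0.974), -0.54 without DSHN 1, 0.11 without DSHN 4 and -0.41 without DMSO 1 and DSHN 1. With background subtracted it was -1.33 and after quantile normalization -0.68, each with an unadjusted p under 0.05 (limma, adjusted p = 0.879 and 0.920). Its size is not known with most DSHN values at background.

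Genes of the rest of the pathway are given next. Those of peptide processing had a lower mean in DSHN for 4 of 4 tested, with a median of -0.61, and 0 passed at either threshold. Ctss, the protease that makes the last cut in Cd74, was 11.14 to 12.55 in DSHN and 12.35 to 12.97 in DMSO, a difference of -0.64 ± 0.31 (log2, SE; limma, adjusted p = 0.925), with -0.35 without DSHN 1 and -0.24 without DMSO 1 and DSHN 1. Cstb, an inhibitor of such proteases, differed by -0.57 (-0.28 without DMSO 1, -0.15 without DMSO 1 and DSHN 1). The lysosomal protease Ctsd differed by -0.36 (-0.22 without DSHN 1, -0.11 without both). Ctsl, a related protease, was 7.83 to 9.50 in DSHN and 8.59 to 12.64 in DMSO, a difference of -0.95 that was 0.0075 without DMSO 1 and 0.34 without both. Without DMSO 1 and DSHN 1, 1 of the 4 was higher and the median was -0.13.

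Among transcription factors that act at class II genes, 3 of 5 had a higher mean in DSHN, the median was 0.054 and 0 passed at either threshold. With DMSO 1 and DSHN 1 left out, 4 of 5 did (median 0.086). Irf4 differed by 0.37, or 0.15 without both samples, and Nfyc, a subunit of the factor that binds the Y box, by 0.18, or 0.086 without both. Irf4 and Nfyc were under background in DSHN 1, and Irf4 differed by 0.21 without that sample. Irf1 differed by -0.22, with the opposite sign, 0.28, without DMSO 1 and DSHN 1. Of 12 tested genes of signals that act on Ciita, 6 were higher and 6 lower (median 0.049, or 9 higher and 0.22 without both samples). Csf2, which encodes GM-CSF, was the 1 with an unadjusted p under 0.05 (limma, adjusted p = 0.925), where 3.61% of all tested genes had one. Csf2 differed by 1.51 ± 0.37, or 1.38 without both, and was above background in 3 of 4 DSHN and 2 of 4 DMSO pools. DSHN 1 was the DSHN pool under background, and without it Csf2 differed by 1.25. Its receptor chain Csf2ra differed by 0.80, or 0.29 without DMSO 1 and DSHN 1, Stat3 by -0.31, or -0.071, and Il4ra by 0.24, or 0.19. Ifng, which encodes interferon gamma, was above background in 0 of 8 samples.

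On the cell surface, class II acts with costimulatory ligands. Of 8 genes tested for such ligands and other surface partners of class II, Lag3 among them, DSHN had the higher mean for 3. The median was -0.11 and 0 passed at either threshold. The mean was higher for 4 (median 0.0025) without DMSO 1 and DSHN 1. Cd86, a ligand of CD28, differed by -0.30 (-0.011 without both samples). Cd274, which encodes PD-L1, differed by -0.38 (-0.038 without both), and Pdcd1lg2, which encodes PD-L2, by 0.35 (0.26 without both). Pdcd1lg2 was under background in DSHN 1, and its difference was 0.17 without that sample. Lag3, an inhibitory receptor for class II on T cells, was above background in 1 of 4 DSHN and 0 of 4 DMSO pools, so no difference is given, though it is 1 of the 3 counted as higher. The class I pathway, which loads peptides in the endoplasmic reticulum without Cd74, had the higher mean in DSHN for 2 of 12 tested genes (median -0.30), or 5 higher and -0.053 without DMSO 1 and DSHN 1. H2-K1, a class I heavy chain, differed by -0.52, or -0.22 without DMSO 1 and -0.11 without both, and H2-D1, another, by -0.34, or -0.11 without DMSO 1 and -0.12 without both. Psmb8, an immunoproteasome subunit, differed by -0.30, or -0.11 without DMSO 1 and -0.12 without both. The chaperone Calr differed by -0.37, or -0.15 without DSHN 1 and -0.044 without both. Whether class I and class II differences differ was not tested.

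Cells that carry class II were followed by their markers, whose part in the results was not tested. Of the dendritic cell markers, 7 of 10 were tested, and 7 of 7 had a higher mean in DSHN (median 0.51), against 53.4% of all tested genes. An unadjusted p under 0.05 was reached by 2, where 3.61% of all tested genes reached it, and 0 passed after adjustment (limma). Of the 7, 6 were higher without DMSO 1 and DSHN 1 (median 0.60). Those 2, named after their values were seen, were Lamp3, a marker of mature dendritic cells, and Ccl22, a chemokine these cells make. Lamp3 was 7.66, 6.27, 5.72 and 5.26 in DSHN 1 to 4, against 2.68, 3.97, 4.09 and 4.93 in DMSO 1 to 4, and was above background in 3 of 4 DSHN and 2 of 4 DMSO pools. The DSHN pool under background was DSHN 1, where the scaling lifts a low count to the highest value, 7.66. The Lamp3 groups did not overlap, which held for 3.25% of the 554 genes. Its difference of 2.31 ± 0.62 was the highest of the 554 genes (limma, adjusted p = 0.925, and 1.42 without DMSO 1 and DSHN 1). Ccl22 differed by 0.81 with overlapping groups (0.75 without both). The summed level of the list was 10.65 to 10.94 in DSHN and 9.93 to 10.63 in DMSO. In DSHN 1 only Ccl22 and Itgax of the list were above background, and the lifted low counts of the others enter that sum. How often sums over other genes separate the groups was not tested. Detection differed within the list. Flt3 was above background in 1 of 4 DSHN and 1 of 4 DMSO pools, Clec9a in 1 and 0, and Xcr1 in 0 of 8. Batf3 was above background in 3 of 4 DSHN and 4 of 4 DMSO pools, and Itgax in 4 and 4. Ccr7, the homing receptor of mature dendritic cells, was 7.58 to 8.10 in DSHN and 6.86 to 8.55 in DMSO, with its lowest value in DMSO 4, where Fscn1 was also lowest, at 5.96. The B cell marker Ms4a1 was 7.07, 6.25, 6.74 and 6.08 in DSHN 1 to 4, against 6.45, 6.12, 5.96 and 5.98 in DMSO 1 to 4, and Fcer2a was above background in 0 of 8. For Ms4a1, too, DSHN 1 was under background, and the scaling lifts its count to the highest value.

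Macrophage and monocyte markers had 8 of 15 higher and 7 lower (median 0.0088), with a summed level of 13.86 to 15.35 in DSHN and 14.41 to 15.16 in DMSO. Neutrophil markers had a summed level of 16.08 to 17.25 in DSHN and 16.35 to 17.77 in DMSO, and 3 of 8 tested were higher and 5 lower. Among neutrophil genes Mpo and Elane were above background in 0 of 8 samples. Markers of eosinophils and NK cells, which can carry CD11b, had higher means in DSHN for 5 of 5 tested (median 0.62, or -0.20 without DMSO 1 and DSHN 1) and 2 of 2 tested (0.33, or 0.39 without both). Among cells outside the myeloid line, the mean was higher in DSHN for 2 of 2 markers of endothelium (median 1.36, or 0.81 without both), for Cd247 of T and NK cells (1.42, or 0.71) and for Cdh1 of epithelium (0.41, or 0.29). The endothelial Cdh5 was above background in 3 of 4 DSHN and 1 of 4 DMSO pools, Cd34 in 3 and 2, Cd247 in 3 and 3 and Cdh1 in 3 and 4. For each of these genes DSHN 1 was under background, and the scaling lifts its low count to the highest value. DSHN 1 was also under background for the NK cell markers Klrk1 and Nkg7. Of these markers 0 passed the adjusted threshold (limma).

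The genes that varied most like the class II genes were sought among 285 others above background in all 8 samples, by Pearson's r with the mean of the 6 members above background everywhere. That mean was 10.29, 10.78, 10.83 and 11.17 in DSHN 1 to 4, against 10.87, 11.24, 11.31 and 10.32 in DMSO 1 to 4. The highest r over the 8 samples were those of Mmp12, a macrophage elastase (r = 0.78, Spearman's rho 0.45), Chil3, a chitinase-like protein of alternatively activated and alveolar macrophages (0.77, 0.79), Hdc, the enzyme that makes histamine (0.76, 0.71), Nlrp3, an inflammasome sensor (0.74, 0.54), and Chil4, a close copy of Chil3 (0.72, 0.79). The median r over the 285 genes was -0.047. These values are a description, since the genes were picked for them and all values share the scaling of their sample, and no p is given. Without DMSO 1 and DSHN 1, r was 0.95 for Chil3, 0.94 for Chil4, 0.82 for Hdc, 0.72 for Mmp12 and 0.62 for Nlrp3. Chil3 was 12.03, 13.94, 14.27 and 14.72 in DSHN 1 to 4, against 12.56, 14.47, 14.58 and 13.32 in DMSO 1 to 4, so it was low in the 2 pools with the lowest class II values and in DMSO 1.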

How the data were processed

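Values of 768 nCounter probes in 8 samples (754 genes, 6 positive and 8 negative controls) are log2 values with 2 decimals as the authors deposited them. Software: not given in the sources used here. Tested on the values, control probes were unscaled counts, and low gene values were whole multiples of a step per sample close to the factor of 5 positive controls. Counts were recovered by removing that factor, exactly only for low values. The background limit lay 2 SD above the mean negative control.

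Values were scaled to the mean log2 of Oaz1, Ppia, Rpl19 and Tubb5. Genes at 20 or more (deposited, linear) in at least 4 samples were fitted with limma 3.58.1 in R 4.3.3 (variance trend, no covariate) and adjusted by Benjamini-Hochberg at 0.05. Within-sample differences used exact two-sided permutation over 70 assignments. The code was tested on simulated data. Members and lists were chosen with earlier results of these data known. All members were named, then up to 4 genes per list by smallest p and the 5 genes most alike in pattern; 1 list gene so chosen is not reported here. Ciita had no row, so the relations planned with it were not run, nor H2-DMa against H2-DMb1, which was near background. Symbols were matched to GRCm38.p6 RefSeq, 8 members by symbol and H2-Ea-ps by synonym. Alternatives were other scalings, filters, background, weights, variance models, a replicate block and samples left out.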

Additional observations from a re-analysis of the deposited data

Results flagged for a closer look

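Of 26 groups of 4 values examined for a sample far from the others (members and within-sample differences), 1 was flagged, and chance flags about 1 in 20. H2-Aa minus H2-Ab1 was 1.48 in DMSO 1, against 1.65 to 1.67 in the other DMSO pools. DMSO 1 is the sample with the spike-in factor of 6.83, and its part in this value was not tested.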

How the results depend on the processing

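No member passed the adjusted threshold in any of 166 member values under the alternatives (lowest adjusted p = 0.127, as deposited). In all, 0 genes passed under every alternative except sample weights, with 5 and no member among them, and weights of 0.14 for DMSO 1 and 0.23 for DSHN 1. As deposited the median of the members was -2.04 and H2-DMb2 differed by -1.84. Signs turned as follows, and the cause was not tested. Without Tubb5 in the scaling H2-Aa differed by 0.038, H2-Ea-ps by 0.035, H2-Eb1 by 0.16 and H2-Ob by 0.048. After median centring H2-Eb1 differed by 0.016. After quantile normalization Cd74 differed by 0.060, H2-Aa by 0.087, H2-Ea-ps by 0.10 and H2-Eb1 by 0.18. With background subtracted H2-DMb2 differed by -0.16. H2-Ob kept its sign but moved to -1.33 with background subtracted and -0.68 after quantile normalization. Without DMSO 1 and DSHN 1 Cd74 and H2-Aa each differed by 0.016, H2-Ea-ps by 0.089 and H2-Eb1 by 0.046, and with Tubb5 also left out by 0.068, 0.068, 0.14 and 0.098. Leaving out each sample in turn gave -0.47 to -0.020 for Cd74, -0.55 to -0.13 for H2-Ab1, -0.39 to -0.11 for H2-DMa, -0.39 to 0.045 for H2-Aa, -0.012 to 0.15 for H2-DMb2, -0.44 to 0.050 for H2-Ea-ps, -0.24 to 0.15 for H2-Eb1 and -0.54 to 0.11 for H2-Ob. H2-DMa minus H2-Ab1 was -0.12 to 0.40 in those fits, -0.12 without DMSO 1 and DSHN 1 (an alternative added after seeing the data) and -0.045 with background subtracted. With background subtracted H2-Eb1, H2-Aa and Cd74 minus H2-Ab1 passed after adjustment, at 0.31, 0.19 and 0.12.

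The count of genes at an unadjusted p under 0.05, 20 in the main setting, was 196 as deposited, 12 with background subtracted, 40 without a filter, 4 among genes above background in all samples, 74 with sample weights, 35 without DMSO 1, DSHN 1 and Tubb5, and 11 to 28 with a sample left out (11 without DSHN 3, 12 without DSHN 1). Same-numbered samples did not deviate together more than others (r = -0.18, 0.14, 0.023 and -0.29, against -0.33 to 0.32 between samples of other numbers). The labels state no pairing, and r from so few samples cannot exclude it. With the replicate block the median of the members was -0.14, 0 genes passed and 11 had an unadjusted p under 0.05, and H2-Eb1 minus H2-Ab1 stayed at 0.27 (exact sign permutation p = 0.125, the smallest that 4 pairs allow). DSHN 1, the shallowest sample, limits H2-DMb2, H2-DMb1 and H2-Ob, which lay under background there.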
